A study of Mus musculus with 9 samples.

Results

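Colon from mice that had been irradiated and given the compound CF-2 was compared with colon from mice that had received neither, gene by gene across the whole table. The members are the libraries of these groups, 6 of the 9 in the study, and every gene counted in them. All mice were wild-type male C57BL/6. The 3 mice of group IR+CF-2 were given 13 Gy and, by intraperitoneal injection, 4 doses of CF-2 at 7.5 mg/kg, the first 1 h before irradiation and the others 24, 48 and 72 h after it. The 3 Con mice were not irradiated and received vehicle only, named PBS for each sample and saline in the overall design. Colon was taken at 84 h. The labels disagree on age (8 or 6 weeks) and on whether the abdomen or the total body was irradiated. The compound is known here by its code name alone, and the title of the series speaks of agonism at the cannabinoid receptor CB2. No group received CF-2 without irradiation and the irradiated mice without CF-2 are left out, so the effects of irradiation and of CF-2 cannot be told apart in any value given here.

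The lining of the colon is renewed from stem cells at the base of the crypts, whose daughters divide, move up and become absorptive, goblet, enteroendocrine or tuft cells. Ionizing radiation breaks DNA and activates the transcription factor p53, dividing crypt cells and lymphocytes are among the most sensitive cells of the gut, and surviving epithelium can divide again within days. CB2, encoded by Cnr2, is a G protein-coupled receptor found mainly on immune cells. Beta-catenin, encoded by Ctnnb1, carries the Wnt signal that maintains the crypt. Hox genes are expressed by position along the gut, the higher-numbered ones towards its hind end.

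Libraries held 37.7 to 44.3 M counts, so 3 counts corresponded to between 0.0677 and 0.0796 CPM, the count per library scaled to a common total. Levels are CPM after TMM scaling, which corrects for differences in library composition, and are given for Con 2, 3 and 4 and for IR+CF-2 1, 2 and 3, as the libraries are numbered. Epithelial RNA was abundant throughout, with Epcam at 1325 to 2039 CPM and Vil1, villin of the brush border, at 650.1 to 1248 CPM. The pancreatic gene Cela2a was at or near 0 in every library, and so was the small-intestinal gene Apoa4. Principal component 1 (53.8% of the variance) separated the groups, from -64.4 to -52.7 in Con and from 33.5 to 84.9 in IR+CF-2. Library IR+CF-2 2 stood apart on the second component (25% of the variance), at 88.5 against -32.8 to 8.67 in the others. In that library Hoxd13 read 148 CPM and Hoxb13 271 CPM, and in the others Hoxd13 reached at most 0.101 CPM and Hoxb13 at most 8.92 CPM. Hoxa13 also differed within Con, at 43.5, 1.03 and 8.10 CPM, against 60.2, 72.0 and 59.9 CPM in IR+CF-2. No label says whether the same stretch of colon was taken from each mouse. In a fit with the level of Hoxa13 as a covariate, 0 genes passed the test, 3142 had an unadjusted p under 0.05, and the smallest adjusted p was 0.0886. Since Hoxa13 itself did not overlap between the groups, this covariate also takes up differences between the groups. The fit therefore cannot part position from group. The share of position in the differences below was not tested, and in whole tissue fewer cells of a type and less RNA per cell cannot be told apart.

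Of 18739 genes tested, 1322 were higher in IR+CF-2 (7.05%) and 1175 lower (6.27%), together 13.3%, at an adjusted p under 0.05 in edgeR's quasi-likelihood test with Benjamini-Hochberg adjustment. This is the test behind every adjusted p given here, and log2 fold changes are IR+CF-2 minus Con ± standard error with 3 mice per group. All 2497 genes called had groups that did not overlap, as did 39.4% of all genes tested (19.9% higher and 19.5% lower). Changes of over 2-fold made up 893 of the increases and 700 of the decreases. The median log2 fold change of all genes tested was 0.05. Leaving out IR+CF-2 2 raised the counts to 4338 higher and 3232 lower. Leaving out any other library lowered them, to 114 higher and 156 lower without Con 2, 85 and 131 without Con 3, 20 and 22 without Con 4, 179 and 210 without IR+CF-2 1, and 299 and 312 without IR+CF-2 3. All 2497 genes kept their direction in each of these fits, which the lack of overlap between their groups largely fixed in advance. Gene lists are described by the number of tested members that passed the test. A list given with 1 direction had no member that passed in the other, and its members should be read against the shares over all genes.

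**Figure D1:**
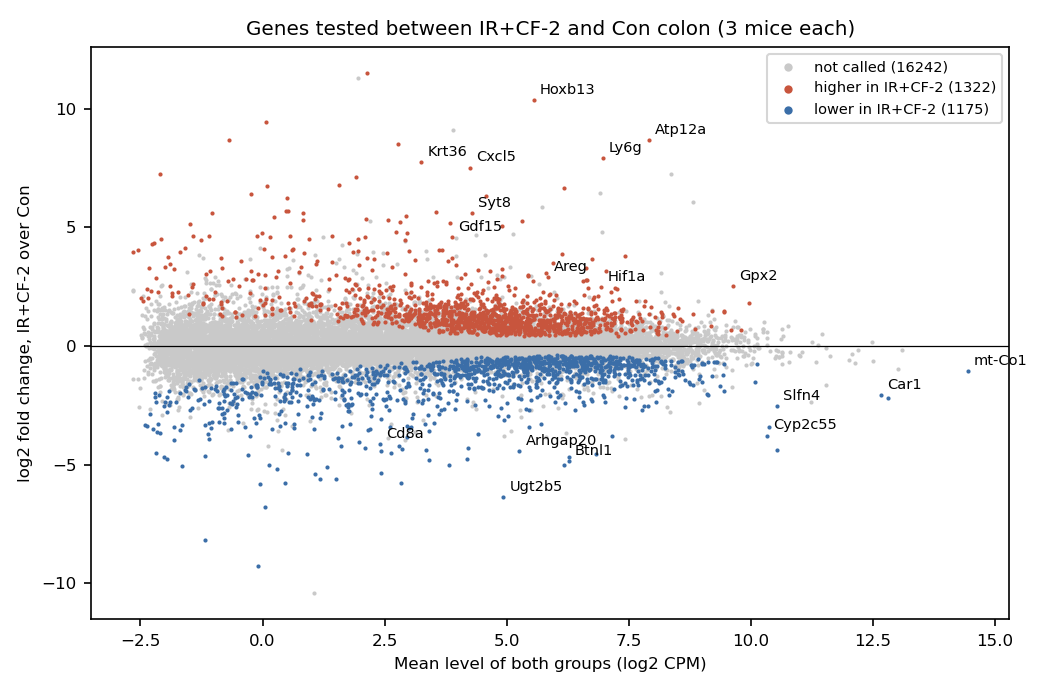
Mean level over the 6 libraries (x axis, log2 CPM) and log2 fold change of IR+CF-2 over Con (y axis) for the 18739 genes tested, 1 point per gene, with the 1322 higher and 1175 lower genes in colour and some genes of the text named. The points lie around a median of 0.05, and called genes occur at all levels.

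Targets of p53 were among the genes with the smallest adjusted p. Of 36 p53 targets, all of them tested, 19 rose and 1 fell, or 55.6% against 13.3% of all genes, with a median log2 fold change of 1.01. Gdf15, a secreted stress factor that reduces food intake (chromosome 8, 70629393 to 70632456 in GRCm38), read 1.41, 0.985 and 1.08 CPM in Con and 22.5, 37.0 and 24.8 CPM in IR+CF-2, a log2 fold change of 4.59 ± 0.28 (adjusted p 0.00353). Eda2r, a death-domain receptor of the TNF receptor family, read 1.75, 1.11 and 1.54 CPM in Con and 29.3, 23.2 and 19.96 CPM in IR+CF-2 (4.04 ± 0.26). For both genes every IR+CF-2 library lay over 10-fold above every Con library. Phlda3, an inhibitor of Akt, rose by 3.25 ± 0.21 and Zmat3, an RNA-binding protein, by 1.91 ± 0.14. The proapoptotic Bax went from 19.6, 20.8 and 17.98 CPM to 61.7, 44.4 and 55.5 CPM (1.47 ± 0.16, adjusted p 0.00973). Mdm2, which marks p53 for degradation, rose from 54.5, 61.0 and 57.9 CPM to 144, 104 and 131 CPM (1.13 ± 0.15). Cdkn1a, the cell cycle inhibitor p21, was already high in Con at 218, 255 and 202 CPM and rose less, to 447, 323 and 382 CPM (0.77 ± 0.17, adjusted p 0.0362). Sesn1, a stress-induced protein that restrains mTOR, was the member that fell, from between 37.7 and 41.9 CPM to 13.6, 25.5 and 14.4 CPM (-1.16 ± 0.26). With 1 library left out the count of p53 targets that rose ran from 7 (without Con 4) to 24 (without IR+CF-2 2), with 12 without Con 2.

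Genes that run or stop cell death were called in both directions. Of 21 tested genes of the BCL2 family and the caspases, 1 rose and 2 fell, or 14.3% against 13.3% of all genes. Bax, which rose as given above, was not in this list. Bok, a proapoptotic relative of Bax, rose by 0.98 ± 0.15, and Bcl2l11, the BH3-only protein Bim, fell by 1.09 ± 0.27 on the log2 scale. Casp6 also fell, from 36.2, 37.7 and 39.8 CPM to 20.98, 18.1 and 25.7 CPM. Among 20 tested genes of lytic cell death, Nlrp3 rose and 3 fell, or 20%. Pycard, the adaptor of inflammasomes, fell from 133, 124 and 140 CPM to 55.3, 44.9 and 60.3 CPM (-1.31 ± 0.14, adjusted p 0.0099). Nlrp6, an inflammasome sensor of the gut epithelium, fell by 1.34 ± 0.18. Gsdme, a pore-forming gasdermin, fell by 1.14 ± 0.24. Without Con 4 no gene of either list passed the test, while without IR+CF-2 2 the first list had 4 higher and 6 lower and the second 2 higher and 8 lower.

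Genes of DNA synthesis and repair were higher together. Of 38 DNA replication genes tested, all had a positive log2 fold change and 19 passed the test, with a median of 1.15. Of 31 DNA repair genes, 16 rose, with a median of 1.02. Rrm2, the limiting subunit of ribonucleotide reductase, read 21.7, 23.4 and 29.2 CPM in Con and 231, 47.4 and 213 CPM in IR+CF-2 (2.72 ± 0.56, adjusted p 0.0313). Library IR+CF-2 2 lay closest to Con for Rrm2, and this held for the list as a whole, whose mean lay 1.5, 0.39 and 1.43 log2 units above the Con mean in IR+CF-2 1, 2 and 3. Mcm5, a subunit of the replicative helicase, rose from 30.5, 41.4 and 34.2 CPM to 151, 63.0 and 143 CPM (1.75 ± 0.34). Mcm6 of the same helicase rose from 60.9, 86.4 and 61.8 CPM to 203, 94.9 and 179 CPM (1.19 ± 0.30, adjusted p 0.0473). Rrm1 rose by 1.72 ± 0.31 and Uhrf1, which carries DNA methylation through replication, by 1.54 ± 0.28. Among the repair genes Exo1, an exonuclease, rose by 1.84 ± 0.29 and Parp1, a sensor of DNA breaks, by 1.09 ± 0.15. Of 33 mitosis genes, 33 had a positive log2 fold change (median 1.43) and 7 passed the test, among them Ccnb1, the cyclin that drives entry into mitosis, at 23.5, 16.8 and 36.8 CPM in Con and 128, 43.1 and 126 CPM in IR+CF-2. Cdkn1b, the cell cycle inhibitor p27, went the other way, from 119, 115 and 135 CPM to 59.9, 81.2 and 71.9 CPM (-0.80 ± 0.15, adjusted p 0.0255). The number of calls changed strongly with the library left out, while the medians moved less. Leaving out 1 library gave medians of 0.96 to 1.43 for replication, 0.90 to 1.22 for repair and 1.17 to 1.73 for mitosis. Without IR+CF-2 2, 38 of 38 replication genes, 27 of the repair genes and 31 of the mitosis genes passed the test, and without any one of the other 5 libraries 0 replication genes, 0 mitosis genes and at most 1 repair gene did.

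Promoters of helicase genes are shown because E2F factors, which drive genes of DNA synthesis, are known to bind them. The 250 bases before the start of each gene in the RefSeq promoter table (GRCm38.p6) were searched on both strands for TTTGGCGC, TTTCCCGC and TTTCGCGC, forms of the E2F motif that may overlap each other. A match was found in 1.78% of the 27025 genes listed there and in 10 of the 31 replication genes listed (32.3%), including Mcm5, Mcm6, Mcm7, Cdc6 and Uhrf1. Matches are in capitals below, on chromosome 1 (128359706 to 128359825, minus strand) for Mcm6 and on chromosome 8 (75109349 to 75109508, plus strand) for Mcm5. Mcm6 held 3 matches and Mcm5 held 2, those on opposite strands overlapping in both genes. A match shows that these letters are present and says nothing of binding.
Mcm6: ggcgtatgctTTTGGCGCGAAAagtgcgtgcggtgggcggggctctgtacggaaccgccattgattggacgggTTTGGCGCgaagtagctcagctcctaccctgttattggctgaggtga
Mcm5: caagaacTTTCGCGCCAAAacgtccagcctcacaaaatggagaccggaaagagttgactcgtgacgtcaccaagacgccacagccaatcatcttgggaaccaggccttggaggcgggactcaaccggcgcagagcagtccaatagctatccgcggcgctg

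Growth factors and genes known from regenerating or fetal-like epithelium were higher. Of 23 tested, 14 rose, with a median of 1.39. Areg, an epidermal growth factor receptor ligand, read 8.65, 20.5 and 11.9 CPM in Con and 143, 54.1 and 107 CPM in IR+CF-2 (2.89 ± 0.46, adjusted p 0.0178). Ereg, a related ligand, read 5.58, 15.1 and 9.45 CPM in Con and 201, 30.6 and 109 CPM in IR+CF-2 (3.50 ± 0.72). The groups did not overlap for either ligand, and IR+CF-2 2 was the lowest treated library in both. Tnip3, an inhibitor of NF-kappaB signalling, rose from 11.5, 8.38 and 8.80 CPM to 83.0, 85.3 and 62.3 CPM (3.00 ± 0.20, adjusted p 0.00353). Ccn1 and Ccn2, matrix proteins known as YAP targets, rose by 2.07 ± 0.22 and 1.39 ± 0.18. Anxa1, a calcium-binding protein of epithelial repair, rose by 1.65 ± 0.27, and Ptgs2, the inducible cyclooxygenase, by 1.78 ± 0.42. Il1rn, the interleukin 1 receptor antagonist, went from 40.03, 45.6 and 29.3 CPM to 161, 107 and 131 CPM (1.79 ± 0.22). The count of 14 ran from 1 (without Con 4) to 17 (without IR+CF-2 2), and was 5, 5, 6 and 8 without Con 2, Con 3, IR+CF-2 1 and IR+CF-2 3.

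Targets of beta-catenin were higher in part. Of 21 tested, 7 rose, with a median of 0.68, all 7 losing their calls without any one library other than IR+CF-2 2. Myc, a driver of cell growth, read 28.8, 34.8 and 23.4 CPM in Con and 94.0, 59.1 and 69.99 CPM in IR+CF-2 (1.36 ± 0.22, adjusted p 0.019). Ccnd1, cyclin D1, read 51.4, 73.3 and 65.1 CPM in Con and 361, 123 and 271 CPM in IR+CF-2 (1.99 ± 0.39). Axin2, a feedback inhibitor of the Wnt pathway, moved least among those called, from 38.5, 37.9 and 35.2 CPM to 52.8, 53.8 and 50.1 CPM (0.49 ± 0.11). Sox9, a factor of crypt progenitors, rose by 0.68 ± 0.16 and Ascl2, a stem cell factor, by 1.28 ± 0.27. Among 21 stem and progenitor genes 4 rose and Kcnq1, a potassium channel subunit, fell by 1.08 ± 0.27. Lgr5, the receptor that marks crypt stem cells, read 8.63, 5.48 and 8.15 CPM in Con and 4.85, 11.01 and 7.12 CPM in IR+CF-2, with overlapping groups (0.05 ± 0.34, adjusted p 0.941). In the core of the pathway 4 of 25 genes rose and 1 fell. The one that fell, Fzd5, a Wnt receptor of the crypt, read 239, 252 and 253 CPM in Con and 72.7, 79.0 and 89.1 CPM in IR+CF-2 (-1.63 ± 0.13, adjusted p 0.00384), and it passed the test without any one library. Fzd1, another Wnt receptor, rose by 1.30 ± 0.19. Without IR+CF-2 2 the stem and progenitor list had 11 higher and 3 lower and the core of the pathway 6 and 4. Without any one other library no stem or progenitor gene passed the test, and in the core at most 1 gene rose.

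Cnr2, Ctnnb1 and Hoxa10, the genes named in the series title, were not called. Cnr2 (chromosome 4, 135895394 to 135920207) read 1.49, 0.657 and 1.75 CPM in Con and 1.20, 1.13 and 0.998 CPM in IR+CF-2 (-0.23 ± 0.40, adjusted p 0.73), and the Con values enclosed those of IR+CF-2. Ctnnb1 (chromosome 9, 120929216 to 120960507) read 653, 827 and 666 CPM in Con and 646, 616 and 711 CPM in IR+CF-2 (-0.12 ± 0.16, adjusted p 0.633). Hoxa10 (chromosome 6, 52231197 to 52240854) read 60.2, 5.71 and 44.4 CPM in Con and 80.7, 40.04 and 83.5 CPM in IR+CF-2 (0.89 ± 0.75, adjusted p 0.443). Its spread within Con came from Con 3, which was also the lowest library for Hoxa13. With the Hoxa13 covariate the fitted change of Hoxa10 turned to -0.61. Of 14 tested genes of the endocannabinoid system, Cnr2 included, 1 rose and 2 fell. Mgll, the lipase that breaks down the endocannabinoid 2-arachidonoylglycerol, fell from 141, 135 and 158 CPM to 45.1, 49.2 and 48.0 CPM (-1.61 ± 0.12, adjusted p 0.0035), with little spread in either group. Pla2g4e, an enzyme of N-acylethanolamine synthesis, fell by 2.07 ± 0.50. Without IR+CF-2 2 the endocannabinoid list had 1 higher and 7 lower, and leaving out any one other library left 1 lower.

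Hox genes and gut position factors outside the HoxA cluster were mostly lower. None of the 11 HoxA genes passed the test in edgeR, DESeq2 or limma-voom, 0 had an unadjusted p under 0.05 in edgeR, and the median was 0.24. The sign of that median turned on Con 3, without which it was -0.14, and with the Hoxa13 covariate it was -0.61. The list mean of the HoxA cluster was 1.59 log2 units below the Con mean in Con 3 and between 0.52 and 0.98 above it in Con 2, Con 4 and the treated libraries. Among 21 tested genes of the other Hox clusters and gut position factors, 5 fell and 1 rose, or 28.6% against 13.3% of all genes. Their median was -0.98, and 3 of the 21 had a positive log2 fold change. Hoxb3 read 11.3, 13.9 and 12.7 CPM in Con and 1.40, 2.42 and 3.27 CPM in IR+CF-2 (-2.42 ± 0.33, adjusted p 0.0138). Hoxb4 fell by 2.40 ± 0.50, Hoxb5 by 2.48 ± 0.54 and Hoxd3 by 2.62 ± 0.49 on the log2 scale. Hoxb9 fell from 89.0, 106 and 101 CPM to 39.7, 50.9 and 63.8 CPM. Hoxb13 (chromosome 11, 96194316 to 96197447) was the gene with the largest fitted increase of those named by the rule, at 0.0487, 0 and 0.162 CPM in Con and 8.92, 271 and 1.27 CPM in IR+CF-2 (10.36 ± 2.58, adjusted p 0.0456). That value rested on IR+CF-2 2, and without it the log2 fold change was 6.15. In the list of other Hox genes and position factors no gene passed the test without Con 3 or Con 4, 1 fell without Con 2 or IR+CF-2 1, and 8 fell without IR+CF-2 2 or IR+CF-2 3.

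**Figure D2:**
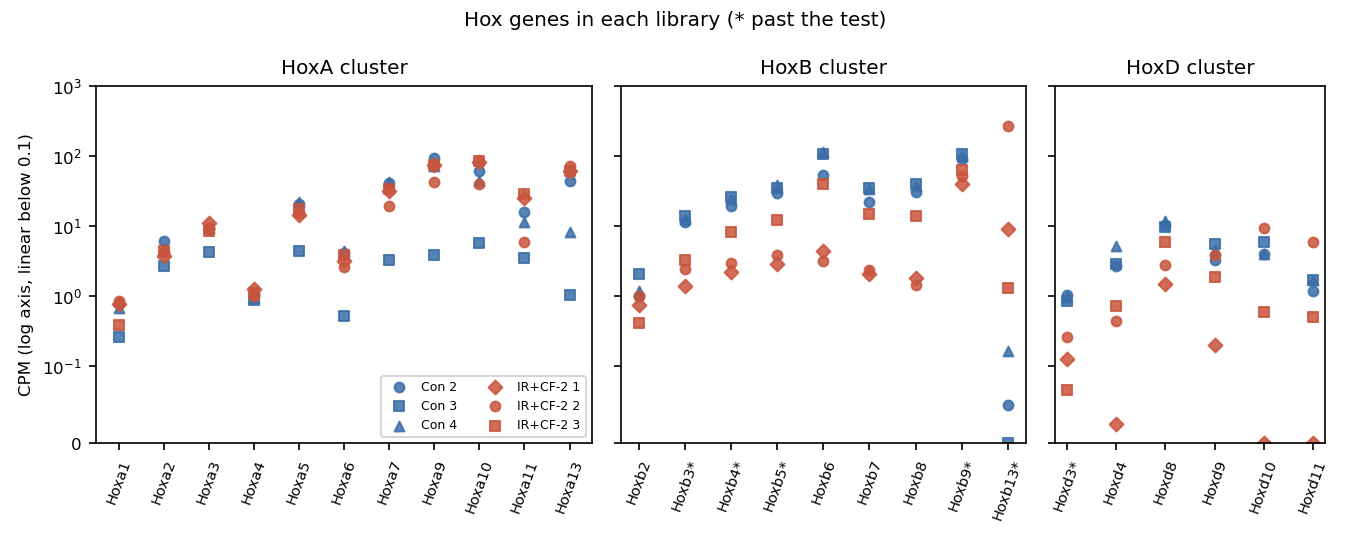
Level (y axis, CPM, log axis, linear below 0.1) of each tested gene of the HoxA, HoxB and HoxD clusters in each library, with Con libraries in blue and IR+CF-2 libraries in red. Con 3 lies lowest for most HoxA genes, IR+CF-2 lies below Con for Hoxb3, Hoxb4 and Hoxb5, and IR+CF-2 2 is the high point of Hoxb13.

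Genes of mature absorptive cells were lower in part. Of 28 absorptive colonocyte genes 5 fell, or 17.9% against 6.27% lower among all genes. The median was -0.63, and 8 had a positive log2 fold change. Car1, carbonic anhydrase 1 and the marker of colonic surface cells, read 6959, 11380 and 13100 CPM in Con and 1396, 2485 and 3649 CPM in IR+CF-2 (-2.06 ± 0.41, adjusted p 0.0292). Guca2a, the hormone guanylin, fell from 1011, 1217 and 791 CPM to 242, 346 and 360 CPM (-1.67 ± 0.24). Slc9a2, a sodium-proton exchanger, fell by 1.32 ± 0.25. For these 3 genes each treated library was below the lowest control. In the separate list of distal ion transport, Cftr, the chloride channel, fell from 188, 166 and 180 CPM to 64.8, 88.0 and 80.6 CPM (-1.19 ± 0.15, adjusted p 0.0117). Atp12a, the colonic proton-potassium pump, went the other way, from 1.41, 1.01 and 1.11 CPM to 198, 1091 and 150 CPM (8.67 ± 1.03, adjusted p 0.011), and its log2 fold change was 7.20 without IR+CF-2 2. The absorptive count of 5 ran from 0 (without Con 3 or Con 4) to 13 (without IR+CF-2 2), with 1 without Con 2 and 2 without IR+CF-2 1.

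The detoxifying enzymes of the colon fell more broadly. Of 36 tested genes of xenobiotic metabolism 16 fell, 44.4% against 6.27% lower among all genes, with a median of -1.61. Cyp2c55, a cytochrome P450 of the colon, read 1723, 2910 and 2577 CPM in Con and 124, 313 and 87.6 CPM in IR+CF-2 (-3.78 ± 0.54, adjusted p 0.0144). Cyp2s1, a P450 of epithelia, fell from 215, 193 and 215 CPM to 36.2, 52.1 and 51.8 CPM (-2.15 ± 0.18, adjusted p 0.00419). Ugt2b5, a UDP-glucuronosyltransferase, had the largest fitted decrease of the genes named by the rule, from 45.9, 66.2 and 68.2 CPM to 0.45, 0.0921 and 1.61 CPM (-6.37 ± 0.84). Ugt1a1, which conjugates bilirubin, fell by 4.32 ± 0.63. Ces1f and Ces1d, carboxylesterases, fell by 2.26 ± 0.22 and 2.47 ± 0.30. Nr1i2, the xenobiotic receptor PXR, fell by 0.85 ± 0.21, from 92.8, 108 and 121 CPM to 44.2, 73.9 and 61.1 CPM. Members of these families are alike in sequence, and the labels do not say how reads shared between them were counted. The count ran from 2 (without Con 4) to 26 (without IR+CF-2 2), with 4 without Con 3, 6 without IR+CF-2 1, 9 without Con 2 and 10 without IR+CF-2 3.

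Genes of fat metabolism fell as well. Of 27 tested genes of fatty acid oxidation and PPAR-alpha 12 fell, with a median of -0.83. Ppara itself, the nuclear receptor that drives these genes (chromosome 15, 85734983 to 85802819), read 15.7, 22.5 and 17.01 CPM in Con and 1.67, 2.72 and 2.86 CPM in IR+CF-2 (-2.93 ± 0.28, adjusted p 0.00772). Cpt1a, which brings fatty acids into mitochondria, fell from 521, 540 and 605 CPM to 262, 343 and 340 CPM (-0.82 ± 0.16). Ehhadh, a peroxisomal enzyme, fell by 1.51 ± 0.22 and Acadvl, the first dehydrogenase of long chains, by 0.83 ± 0.13. All 13 genes of the mitochondrial genome that were tested had a negative log2 fold change and 4 passed the test. The most abundant gene, mt-Co1, read 29380, 31800 and 28910 CPM in Con and 12390, 16350 and 14210 CPM in IR+CF-2 (-1.07 ± 0.20, adjusted p 0.0249). Mitochondrial genes took 5.01 to 5.52% of counts in Con and 2.70 to 3.87% in IR+CF-2. The count of 12 for fat metabolism ran from 0 (without Con 4) to 19 (without IR+CF-2 2), and was 2 without Con 2, 2 without Con 3 and 4 without IR+CF-2 1. The mitochondrial 4 became 11 without IR+CF-2 2 and 0 without any other library.

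Genes of tuft cells, sensory cells of the epithelium, were lower. Of 15 tested 7 fell, with a median of -1.27. Trpm5, the cation channel of tuft cell taste signalling, read 12.9, 18.03 and 11.9 CPM in Con and 0.849, 2.56 and 0.703 CPM in IR+CF-2 (-3.38 ± 0.54, adjusted p 0.0178). Rgs13, a regulator of G protein signalling found in tuft cells, fell from 4.22, 6.44 and 5.64 CPM to 0.25, 0.714 and 0.136 CPM (-3.88 ± 0.60). Dclk1, the common tuft marker, fell less, by 1.19 ± 0.29. IR+CF-2 2 was the highest treated library for all 3 genes, and the list mean lay 1.89, 0.86 and 1.97 log2 units below the Con mean in IR+CF-2 1, 2 and 3. Of 22 goblet genes 1 rose and 2 fell, or 13.6%, near the 13.3% of all genes. Muc2, the main mucin, read 9994, 9993 and 8149 CPM in Con and 10380, 3597 and 10650 CPM in IR+CF-2 (-0.19 ± 0.41, adjusted p 0.778), with only IR+CF-2 2 lower. Ang4, an antimicrobial ribonuclease of goblet and Paneth cells, rose from 27.1, 11.01 and 25.6 CPM to 94.6, 76.2 and 119 CPM (2.19 ± 0.36). Among 23 enteroendocrine genes 1 rose and 2 fell, or 13%, also near the share of all genes. Insl5, a hormone of colonic L cells, rose from 3.70, 1.62 and 0.756 CPM to 42.0, 165 and 26.5 CPM (5.26 ± 0.94), or by 4.07 without IR+CF-2 2. Sst, somatostatin, fell by 1.77 ± 0.38 and Pcsk1, a prohormone convertase, by 1.21 ± 0.23. The tuft count ran from 0 (without Con 3 or Con 4) to 11 (without IR+CF-2 2), with 1 without IR+CF-2 1 or Con 2 and 3 without IR+CF-2 3. Without IR+CF-2 2 the goblet list had 3 higher and 4 lower and the enteroendocrine list 3 and 6, and leaving out any one other library left at most 1 call in each.

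Barrier genes moved in both directions. Of 21 tight junction genes 2 rose and 4 fell. Cldn4 rose from 47.1, 63.8 and 44.7 CPM to 195, 117 and 94.5 CPM (1.39 ± 0.29), and Lsr, a protein of junctions where 3 cells meet, rose by 1.56 ± 0.21. Cldn3 fell from 423, 510 and 479 CPM to 309, 312 and 283 CPM (-0.64 ± 0.14), and Cldn23 by 0.97 ± 0.16. Among 21 tested keratins and genes of cornifying epithelium 7 rose, with a median of 1.64. Krt36, a keratin of hair and tongue, read 0.0974, 0.0505 and 0.108 CPM in Con and 12.4, 28.8 and 15.4 CPM in IR+CF-2 (7.74 ± 0.51, adjusted p 0.00353). Grhl3, a transcription factor of skin barrier formation, read 0.39, 0.353 and 0.216 CPM in Con and 7.92, 5.96 and 5.65 CPM in IR+CF-2 (4.33 ± 0.34). Krt15 rose by 2.83 ± 0.34. IR+CF-2 2 was the highest treated library for Krt36 and lay between the others for Grhl3. The keratin count was 2 without Con 4, 3 without Con 2 or Con 3, and 12 without IR+CF-2 2. Krt36 was near the floor in Con and entered the test through the treated libraries. Another 3 members of the list were too low to test, so the keratin count and median are a description only. No tight junction gene passed the test without Con 2, Con 3 or Con 4, and 4 rose and 8 fell without IR+CF-2 2. Among 23 antimicrobial genes 5 rose. Pla2g2a had the smallest adjusted p, going from 2.00, 1.54 and 1.73 CPM to 97.7, 27.2 and 50.2 CPM (5.05 ± 0.51, adjusted p 0.00923). The gene is known for a secreted phospholipase that kills bacteria, but the annotation types it as a polymorphic pseudogene. Its RNA level therefore says nothing of a working enzyme in these mice. Lcn2, which withholds iron from bacteria, rose by 2.24 ± 0.30. The antimicrobial count of 5 was 0 without Con 4, 1 without Con 3 and 2 without Con 2. It includes S100a8 and S100a9, both near the floor in Con, so it is a description only.

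Genes of the response to oxidants rose in part. Of 22 NRF2 and oxidative stress genes 8 rose, with a median of 0.47. Gpx2, the glutathione peroxidase of gut epithelium, read 238, 173 and 293 CPM in Con and 1714, 623 and 1713 CPM in IR+CF-2 (2.52 ± 0.43, adjusted p 0.0207). Slc7a11, the cystine importer, rose from 1.90, 1.92 and 2.62 CPM to 26.3, 10.04 and 40.9 CPM (3.58 ± 0.52). Hmox1, heme oxygenase 1, rose by 2.15 ± 0.23 and Gclm, of glutathione synthesis, by 0.72 ± 0.14. Gpx2 and Slc7a11 were lowest in IR+CF-2 2 among the treated libraries. The count of 8 ran from 0 (without Con 4) to 13 (without IR+CF-2 2), with 1 without Con 3, 3 without IR+CF-2 1, 4 without IR+CF-2 3 and 2 without Con 2. Of 25 hypoxia and glycolysis genes 3 rose and 1 fell, or 16% against 13.3% of all genes. Hif1a, the oxygen-regulated transcription factor, rose from 48.0, 31.9 and 31.6 CPM to 235, 218 and 171 CPM (2.48 ± 0.22, adjusted p 0.00611). In the same list Gapdh rose by 1.13 ± 0.21 and Egln3 by 0.78 ± 0.19, and Ankrd37 fell by 3.02 ± 0.40. Among 24 genes of the integrated stress and unfolded protein responses 3 rose, including Psat1 and Phgdh of serine synthesis (3.05 ± 0.60 and 2.96 ± 0.54), and Ddit3, which encodes CHOP, fell by 0.87 ± 0.16. The count of 3 was 13 without IR+CF-2 2 and 0 without any one other library, and in the hypoxia list 8 rose and 5 fell without IR+CF-2 2.

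**Figure D3:**
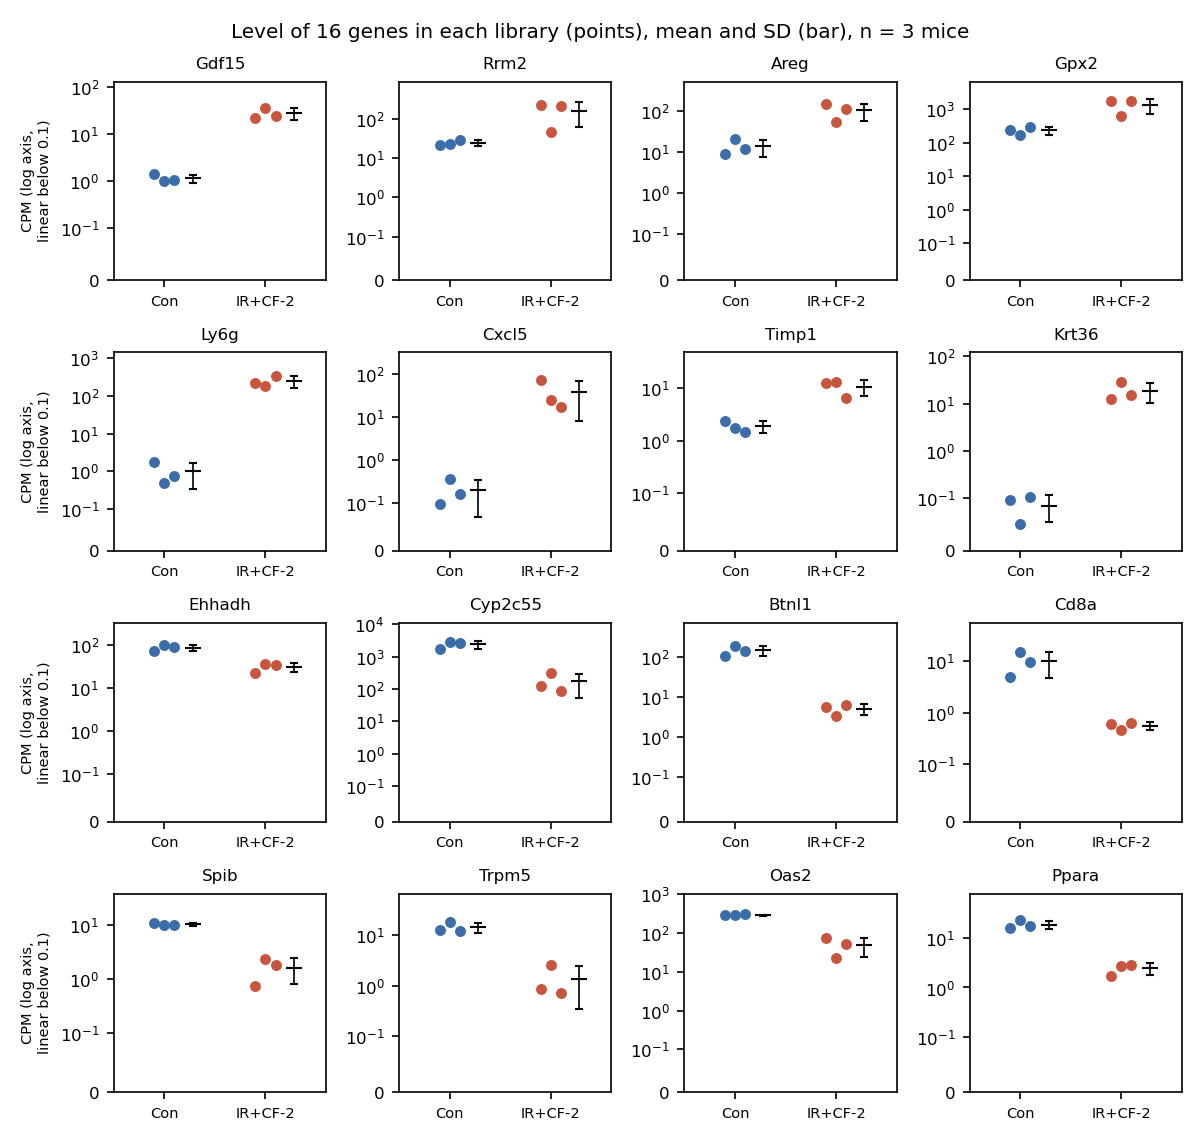
Level (y axis, CPM, log axis, linear below 0.1) of 16 genes of the text in each of 3 Con (blue) and 3 IR+CF-2 (red) libraries, in order of library number, with the mean and SD as a black bar, n = 3 mice. The groups are apart in every panel, by the most in Ly6g and Krt36, and Rrm2 in IR+CF-2 2 lies near Con.

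Lymphocyte genes were lower. Of 26 tested genes of T and NK cells 17 fell, or 65.4% against 6.27% lower among all genes, with a median of -1.94. Cd8a, a coreceptor of cytotoxic T cells (chromosome 6, 71373427 to 71379173), read 4.97, 15.6 and 9.69 CPM in Con and 0.599, 0.46 and 0.635 CPM in IR+CF-2 (-4.15 ± 0.48, adjusted p 0.0108). Cd3e, part of the T cell receptor complex, read 2.12, 4.27 and 2.21 CPM in Con and 0.30, 0.207 and 0.272 CPM in IR+CF-2 (-3.45 ± 0.41). The treated libraries were near each other for both genes, and Con 3 was the highest control. Gzma, a granzyme, fell by 4.38 ± 0.68 and Klrd1, an NK cell receptor, by 2.22 ± 0.26. Among 19 genes of intraepithelial lymphocytes and their epithelial partners 11 fell, with a median of -1.95. Btnl1 (chromosome 17, 34377132 to 34386028), a butyrophilin-like protein of enterocytes that maintains gamma-delta T cells, read 109, 193 and 146 CPM in Con and 5.72, 3.32 and 6.53 CPM in IR+CF-2 (-4.84 ± 0.35, adjusted p 0.00353). Il15, the cytokine that sustains these lymphocytes, fell from 16.7, 27.2 and 18.9 CPM to 6.32, 11.1 and 5.99 CPM (-1.42 ± 0.31). The T and NK cell count ran from 0 (without Con 4) to 18 (without IR+CF-2 2), and was 6 without IR+CF-2 1, 5 without IR+CF-2 3, 3 without Con 3 and 5 without Con 2. The intraepithelial count was 1 without Con 4, 2 without Con 3 or IR+CF-2 3, 3 without IR+CF-2 1, 5 without Con 2 and 14 without IR+CF-2 2.

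B cell genes fell while the joining chain of plasma cells did not pass the test. Of 24 tested B and plasma cell genes 10 fell, with a median of -1.95. Spib, a transcription factor of B cells and M cells, read 11.2, 10.1 and 10.1 CPM in Con and 0.724, 2.33 and 1.81 CPM in IR+CF-2 (-2.69 ± 0.42, adjusted p 0.0173). The treated libraries were all below the controls, which lay close together. Ighd, the heavy chain of naive B cells, fell by 5.61 ± 0.97. The list mean in Con 3 was 0.71 log2 units below the Con mean, against -1.87, -1.54 and -1.84 in the treated libraries. Jchain, the joining chain of secreted IgA, read 312, 342 and 198 CPM in Con and 219, 265 and 185 CPM in IR+CF-2, with overlapping groups (-0.35 ± 0.24, adjusted p 0.358). The B cell count was 5 without Con 3, 13 without IR+CF-2 2, 1 without IR+CF-2 1, and 0 without Con 2, Con 4 or IR+CF-2 3. Cxcl13, the chemokine that draws B cells into follicles, rose from 9.62, 7.37 and 11.98 CPM to 38.4, 19.3 and 58.0 CPM (2.00 ± 0.41).

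Genes of neutrophils and of the chemokines that attract them rose. Of 18 neutrophil markers 11 were tested and 6 rose. The other 7 were too low to test, among them the granule genes Mpo and Elane, at most 0.054 and 0.0505 CPM in any library. Ly6g (chromosome 15, 75155240 to 75159126), a surface protein used to identify neutrophils, read 1.80, 0.505 and 0.756 CPM in Con and 220, 185 and 341 CPM in IR+CF-2 (7.92 ± 0.58, adjusted p 0.00353). S100a8 and S100a9, the subunits of calprotectin, were at or below 0.101 CPM in Con, and read 8.42, 2.63 and 6.49 CPM and 15.7, 4.77 and 2.13 CPM in IR+CF-2. Per length of transcript, as the authors' FPKM, Ly6g stood at 231, 215 and 360 in IR+CF-2, against 12, 4.14 and 9.3 for S100a8 and 29.7, 10 and 4.06 for S100a9. Ly6g was therefore higher than both calprotectin genes in each treated library. Cxcr2, the receptor of the neutrophil chemokines, had 0 counts in Con and was at least 48.7-fold higher in IR+CF-2, taking 3 counts over the Con group as the floor. Among 20 tested cytokines and chemokines 7 rose, with a median of 2.54. Cxcl5 read 0.0974, 0.353 and 0.162 CPM in Con and 72.1, 24.8 and 16.7 CPM in IR+CF-2 (7.51 ± 0.81, adjusted p 0.00977). Cxcl1 read 0.244, 0.252 and 0.108 CPM in Con and 6.04, 6.75 and 12.6 CPM in IR+CF-2 (5.36 ± 0.49, adjusted p 0.0062). Cxcl2 was at most 0.054 CPM in Con and read 7.14, 2.03 and 32.0 CPM in IR+CF-2. Lif, an interleukin 6 family cytokine, rose by 1.85 ± 0.33, and the monocyte chemokines Ccl2 and Ccl7 rose by 2.63 ± 0.63 and 3.04 ± 0.57. The neutrophil count ran from 1 (without Con 3 or Con 4) to 9 (without IR+CF-2 2), with 2 without Con 2 and 3 without IR+CF-2 1. The cytokine count ran from 1 (without Con 4) to 12 (without IR+CF-2 2), with 3 without Con 2, Con 3 or IR+CF-2 1, and the cytokine median was 0.99 without IR+CF-2 1. Since Cxcr2, S100a8 and S100a9 reached the filter on low counts through the treated libraries, the neutrophil count is a description only. Cxcl1, Cxcl2 and Cxcl5 were likewise low in Con and reached it through the treated libraries. Another 6 cytokine genes were too low to test, so the cytokine count and median are a description only as well.

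The promoters of Cxcl1 and Cxcl2 are shown as the called chemokine genes that hold letters of the motif of NF-kappaB, a factor known to drive them in inflammation. GGGAATTTC, GGGACTTTC and GGGGATTTC, shortened forms of the kappaB motif, were searched on both strands in the same 250 bases, and 0.84% of the 27025 genes held a match. So did 4 of 18 cytokine genes listed (22.2%), Cxcl1, Cxcl2, Cxcl3 and Cxcl9. Cxcl3 was too low to test, and Cxcl9, a chemokine for T cells, read 4.90, 20.6 and 5.51 CPM in Con and 186, 10.5 and 41.5 CPM in IR+CF-2, with overlapping groups (2.94 ± 1.09, adjusted p 0.113, or 3.46 and adjusted p 0.0361 without IR+CF-2 2). Both sequences lie on the plus strand of chromosome 5, from 90891125 to 90891244 for Cxcl1 and from 90903779 to 90903898 for Cxcl2, with the match in capitals. The match begins 71 bases before the start of Cxcl1 and 97 bases before that of Cxcl2.
Cxcl1: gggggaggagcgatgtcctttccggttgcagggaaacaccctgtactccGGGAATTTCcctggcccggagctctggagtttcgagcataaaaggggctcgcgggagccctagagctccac
Cxcl2: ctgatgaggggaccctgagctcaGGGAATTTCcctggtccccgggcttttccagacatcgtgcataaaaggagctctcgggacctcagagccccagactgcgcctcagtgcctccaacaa

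Macrophage and complement genes rose and interferon-stimulated genes fell. Of 21 tested macrophage and monocyte genes 8 rose and 1 fell, with a median of 1.23. Adgre1, the macrophage marker F4/80, read 7.19, 4.95 and 5.35 CPM in Con and 13.6, 23.9 and 9.75 CPM in IR+CF-2 (1.43 ± 0.36, adjusted p 0.0456). Chil3, a chitinase-like protein of activated macrophages, rose from 0.244, 0.303 and 0.54 CPM to 17.2, 18.4 and 5.49 CPM (5.23 ± 0.60). Mertk, a receptor for dying cells, fell by 1.85 ± 0.37. Among 17 complement genes 6 rose, including C1ra and C1s1 of the classical pathway (1.42 ± 0.21 and 1.32 ± 0.21) and Cd55, a complement inhibitor (1.5 ± 0.2). Without Con 3 or Con 4 none of these macrophage or complement genes passed the test, without Con 2 1 of the former and 0 of the latter, and without IR+CF-2 1 1 of each.

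All 29 interferon-stimulated genes tested had a negative log2 fold change, 12 passed the test and the median was -1.54. Oas2, an antiviral synthetase activated by double-stranded RNA, read 288, 286 and 302 CPM in Con and 73.7, 22.5 and 51.3 CPM in IR+CF-2 (-2.57 ± 0.41, adjusted p 0.0178). Irf7, the transcription factor that amplifies type I interferon, read 690, 1147 and 878 CPM in Con and 276, 162 and 210 CPM in IR+CF-2 (-2.07 ± 0.28, adjusted p 0.0136). IR+CF-2 2 was the lowest treated library for both, and the list mean lay 0.86, 2.41 and 1.65 log2 units below the Con mean in IR+CF-2 1, 2 and 3. Slfn4, a schlafen gene of myeloid cells, fell by 2.55 ± 0.40, and Ifit1, which binds viral RNA, from 380, 847 and 321 CPM to 184, 69.6 and 121 CPM (-2.05 ± 0.49). The count was 12 without IR+CF-2 2, 4 without IR+CF-2 1, 1 without Con 2, Con 3 or IR+CF-2 3, and 0 without Con 4. Without both Con 3 and IR+CF-2 2 the median was -0.77. Of 23 genes of MHC class I and the guanylate-binding family, which interferons also induce, 2 fell, and 0 passed the test without any one library other than IR+CF-2 2. Iigp1, an interferon-inducible GTPase, read 83.6, 151 and 58.4 CPM in Con and 1117, 70.6 and 232 CPM in IR+CF-2 (2.28 ± 0.95, adjusted p 0.147), with overlapping groups.

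Promoters of Ifit1 and Oas1a are shown for the repeated GAAA elements that factors of the IRF family are known to read. GAAANNGAA, where N is any base, was found on either strand in 8.18% of the 27025 genes and in 10 of the 20 interferon-stimulated genes listed, and 4 of the 9 called members listed held it. Ifit1 lies on the plus strand of chromosome 19 (34640769 to 34640888), where 3 matches lie on the strand opposite to the one printed and 2 of them overlap. Oas1a lies on the minus strand of chromosome 5 (120907526 to 120907645), where 2 matches overlap close to the start of the gene. Matches are in capitals.
Ifit1: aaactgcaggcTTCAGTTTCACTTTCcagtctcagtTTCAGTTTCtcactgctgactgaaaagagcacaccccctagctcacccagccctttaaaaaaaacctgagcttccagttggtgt
Oas1a: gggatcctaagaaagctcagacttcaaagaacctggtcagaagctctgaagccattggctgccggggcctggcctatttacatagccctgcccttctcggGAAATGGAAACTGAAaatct

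**Figure D4:**
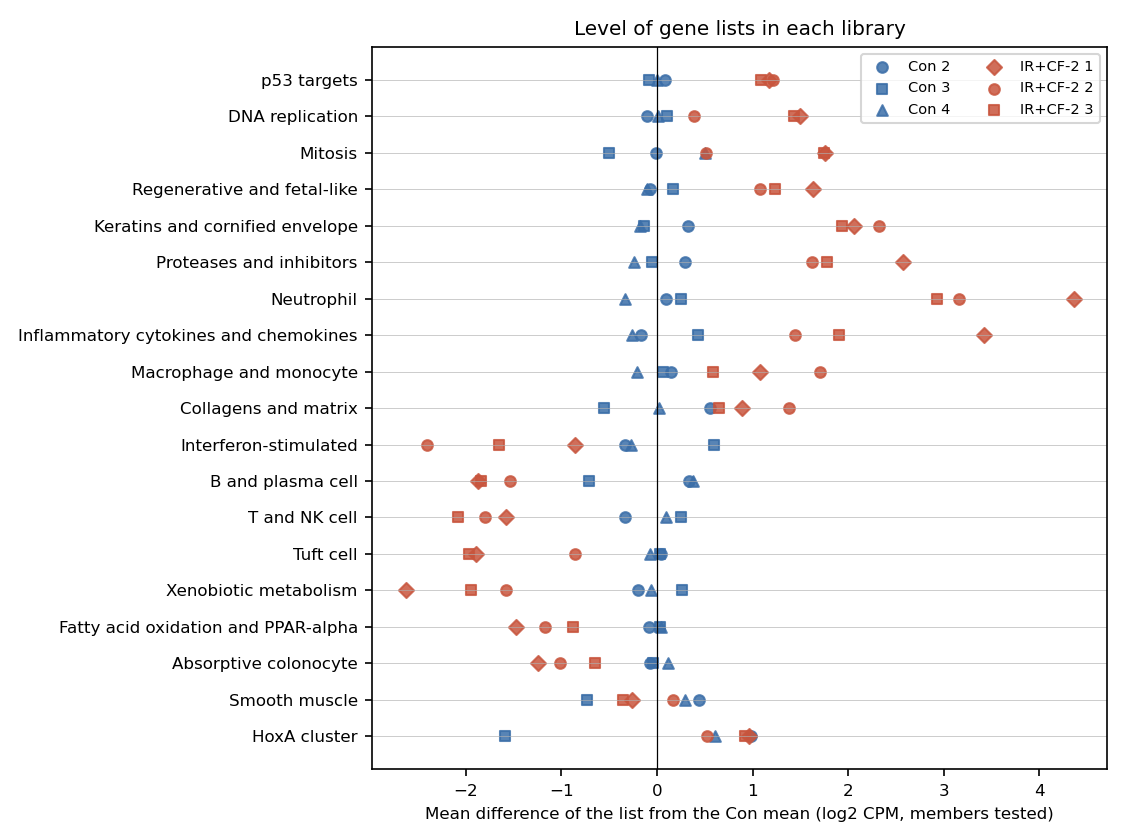
Mean difference of 19 gene lists from the Con mean (x axis, log2 CPM over the tested members) in each library, with Con in blue, IR+CF-2 in red and the marker showing the library number. Neutrophil genes, of which the 11 that passed the filter on low counts are plotted, lie 2.93 to 4.36 above the Con mean in the treated libraries, DNA replication in IR+CF-2 2 (0.39) lies below the other treated libraries, and the HoxA cluster is lowest in Con 3 (-1.59).

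Genes of the matrix and its proteases rose. Of 24 tested proteases and inhibitors 16 rose, 66.7% against 7.05% higher among all genes, with a median of 2.08. Timp1, an inhibitor of matrix metalloproteinases, read 2.41, 1.77 and 1.46 CPM in Con and 12.6, 13.4 and 6.58 CPM in IR+CF-2 (2.53 ± 0.36, adjusted p 0.0143). Serpina3n, an inhibitor of serine proteases, rose from 20.03, 16.1 and 18.5 CPM to 164, 234 and 138 CPM (3.29 ± 0.23, adjusted p 0.00353). Mmp3, a metalloproteinase, rose by 4.45 ± 0.65 and Plat, a plasminogen activator, by 1.53 ± 0.18. Treated libraries were all above the controls in these genes. Of 30 collagen and matrix genes 8 rose, with a median of 1.04. Col18a1, a basement membrane collagen, rose from 43.1, 20.96 and 31.0 CPM to 206, 95.9 and 212 CPM (2.43 ± 0.39), and Col4a1 rose by 1.24 ± 0.23. Con 3 was the lowest control for both, and the list mean of collagens there was 0.56 log2 units below the Con mean. Of 22 tested genes of the Wnt, R-spondin and BMP niche 7 rose and 1 fell. Rspo3, a stromal amplifier of Wnt signals, rose from 3.34, 1.84 and 3.56 CPM to 10.7, 9.46 and 7.48 CPM (1.66 ± 0.31), Grem1, a BMP inhibitor, by 2.77 ± 0.70, and Wnt11 fell by 1.64 ± 0.33. The protease count ran from 1 (without Con 3 or Con 4) to 20 (without IR+CF-2 2), with 6 without Con 2 and 7 without IR+CF-2 1, and the collagen count was 9 without IR+CF-2 2, 1 without Con 2 and 0 without any other library. The collagen median was 0.63 without both Con 3 and IR+CF-2 2. In the niche list 9 rose and 1 fell without IR+CF-2 2, 2 rose without Con 2, and no gene passed the test without any one of the other 4 libraries.

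Markers of the other cells in the colon wall gave counts that changed with the libraries used. Smooth muscle genes had a median of -0.21, with 1 of 18 lower, and the mean of the list was 0.73 log2 units below the Con mean in Con 3. Their median was -0.51 without Con 3, 0.02 without Con 2 and -0.91 with the Hoxa13 covariate, and 13 of 18 fell without both Con 3 and IR+CF-2 2. Among 20 fibroblast genes 3 rose and Dpep1 fell by 2.68 ± 0.30. Of 22 endothelial genes 5 rose, including Icam1, an adhesion molecule for leukocytes, from 6.87, 6.94 and 5.83 CPM to 79.5, 21.5 and 26.5 CPM (2.70 ± 0.52). Of 19 genes of enteric neurons and glia 2 fell, among them Erbb3, a neuregulin receptor that epithelium also expresses (-1.42 ± 0.22). The count of 2 was 9 without IR+CF-2 2, 12 without Con 3 as well, and 0 without any one other library. Adipoq, adiponectin, ranged from 0.27 to 13.1 CPM in Con and from 2.25 to 29.9 CPM in IR+CF-2. Of 14 tested small-intestinal markers 4 fell, led by Sis, sucrase-isomaltase, from 4.82, 3.61 and 3.91 CPM to 0.05, 0 and 0.227 CPM (-5.42 ± 0.84). Without Con 4 no fibroblast, endothelial or small-intestinal gene passed the test, and without IR+CF-2 2 these lists had 5 higher and 3 lower, 5 higher, and 1 higher and 5 lower. The part of tissue composition in the other differences was not tested.

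**Figure D5:**
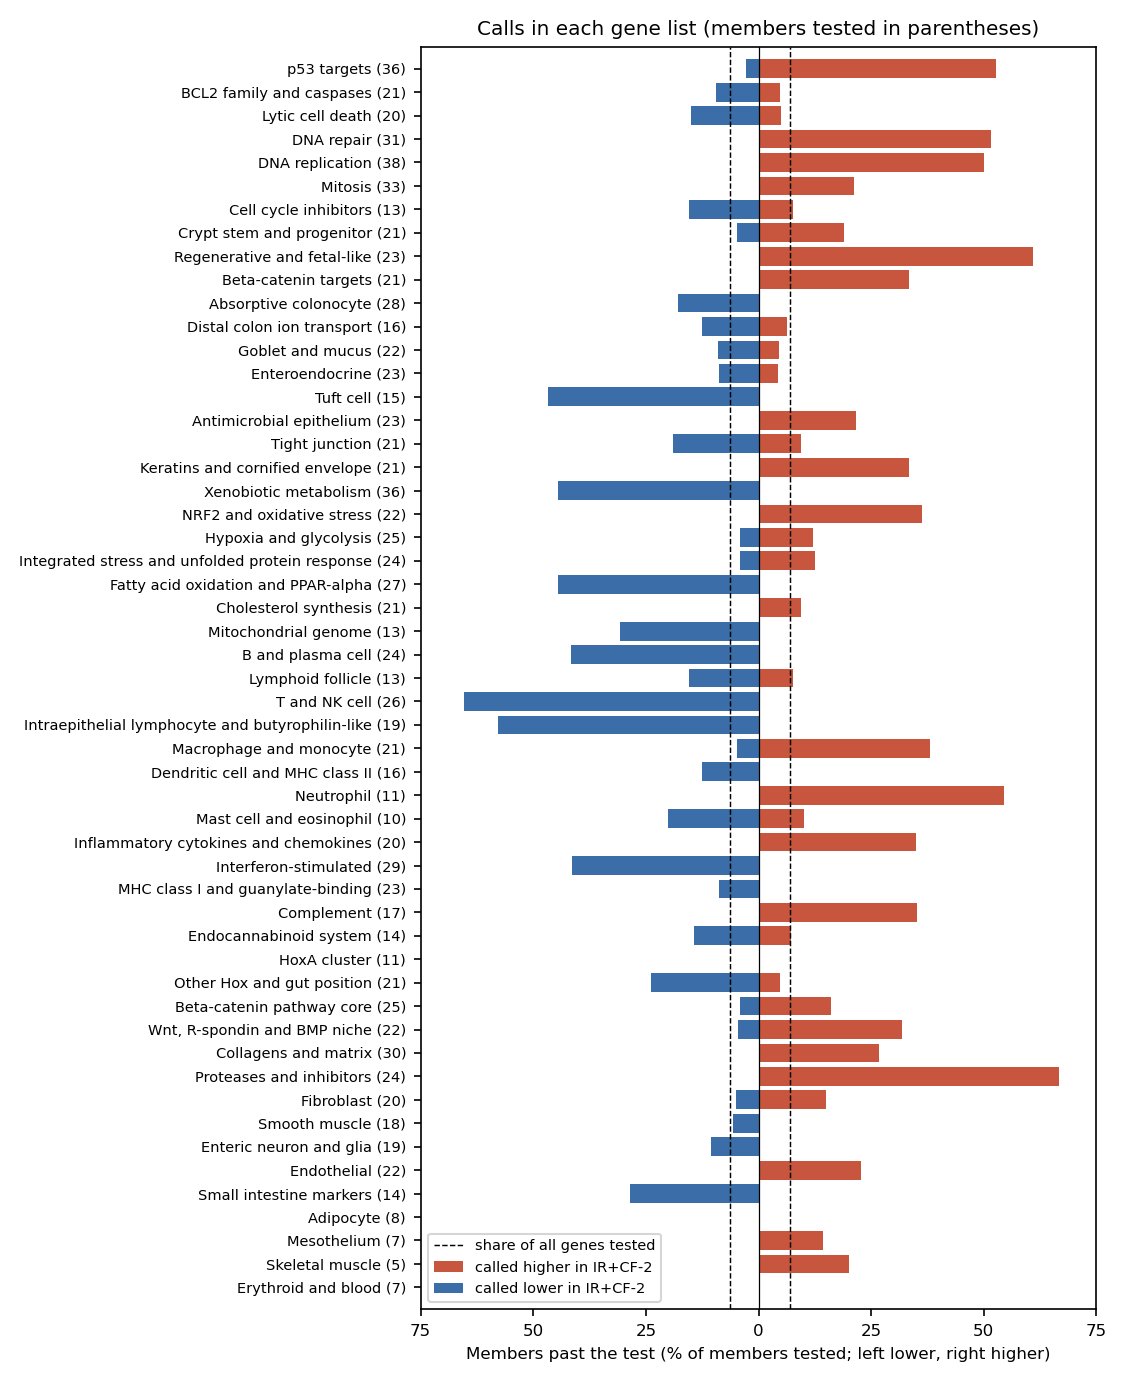
Share of the tested members of each gene list (x axis, percent of the members tested, for lists with at least 5) that rose (red, to the right) or fell (blue, to the left) in IR+CF-2 against Con, with dashed lines at the shares over all 18739 genes (7.05% higher and 6.27% lower). Proteases (16 of 24) and regenerative genes (14 of 23) have the largest shares of members that rose, and T and NK cell genes (17 of 26) the largest share that fell.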

How the data were processed

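Poly(A) RNA from whole colon was sequenced as paired-end libraries, per the labels' protocols. The submitters' processing notes name HISAT2, featureCounts and DESeq2 as tools, and GRCm38 and mm10 as builds. Tool versions, the strand setting and the handling of reads shared between genes are not stated there or in the labels. Per the file headers the deposited table gives a raw count and an FPKM value, made by the authors, for each gene and library. It lists 33539 genes, 2290 of them at 0 in all 6 libraries. Identifiers of 32869 genes were found in GENCODE M21 on GRCm38, which gave coordinates.

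Counts of the 6 libraries were fitted in edgeR 4.0.16 (R 4.3.3) by quasi-likelihood, after filterByExpr and TMM scaling, with the robust option on and group as the only term. This left 18739 genes tested and 12510 detected but not tested. The F-test was 2-sided, and p was adjusted by Benjamini-Hochberg over all genes tested, with a threshold of 0.05. The biological coefficient of variation was 31.2%. List means and principal components used log2 CPM with a prior count of 2, and levels are plain CPM on TMM-scaled library sizes. FPKM was used only to compare genes with each other. Nothing says how mice were housed or batched, and p-values reflect the spread between these samples. Floors of 3 counts cover counting error only, since PCR copies cannot be told apart.

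The libraries compared and the 54 gene lists (1050 distinct genes tested, 46 of them in more than 1 list) were chosen with earlier results of these data known. Named are the genes of the title, those with the 20 largest increases and decreases among called genes whose higher group averaged 5 CPM or more (predicted genes, pseudogenes and receptor segments left out), the 4 smallest adjusted p in each list, and marker genes. Other named members, the promoters, the motif letters and the FPKM comparison were chosen after their values were seen, and some genes that the rule names are not reported here. On simulated data with these means and depths the test recovered 17% of 2-fold and 78% of 4-fold changes, and 4.04% of its 99 calls were false. Changes were planted in a small part of the genes, none of them of few counts, and no library was made to stand apart. These rates therefore do not cover genes of few counts or a library such as IR+CF-2 2. Alternatives were scaling by RLE or by the upper quartile, leaving the filter out or raising it, DESeq2 1.42.0, limma-voom (limma 3.58.1), the robust option off, a fit of all 9 libraries, a replicate block, a Hoxa13 covariate, and leaving out libraries.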

Additional observations from a re-analysis of the deposited data

How the results depend on the processing

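Against 1322 genes higher and 1175 lower, DESeq2 called 2613 and 2170, and a fit of all 9 libraries called 2152 and 1525. The Hoxa13 covariate left 0 and 0. Leaving out Con 3 and IR+CF-2 2 together gave 4274 and 3364. Leaving out 1 library gave from 20 to 4338 higher and from 22 to 3232 lower, and of 150 named genes past the test 131 lost their call without Con 4 and 0 without IR+CF-2 2. RLE scaling, both filters, robust = FALSE and limma-voom kept both counts within 1.5 times, and so did upper quartile scaling, where increases were 47.2% of the calls against 52.9% and 44.6% in limma-voom. All called genes with a value kept their direction under every alternative. Since the groups of these genes did not overlap, this was largely fixed in advance and adds no support. With the library number as a replicate block 56 genes were higher and 74 lower, 3252 with an unadjusted p under 0.05. Same-numbered libraries deviated together in 1 pair (r = 0.219 for number 2) and hardly in the other (r = 0.047 for number 3), so the numbers were not taken as pairs.

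The changes of direction were in genes not past the test. Leaving out 1 library gave log2 fold changes from -0.97 (without IR+CF-2 2) to 2.14 for Adipoq, from -0.31 (without IR+CF-2 2) to 0.29 for Lgr5, from -0.42 to 0.16 (without IR+CF-2 2) for Muc2, and from -0.58 to 0.01 (without Con 4) for Cnr2. Without both Con 3 and IR+CF-2 2 they were -0.49 for Lgr5, 0.21 for Muc2 and 0.04 for Ctnnb1. Lgr5 was at -0.16 without Con 3 and -0.01 with upper quartile scaling, and Cnr2 at 0.09 with the replicate block. The Hoxa13 covariate gave 0.10 for Ctnnb1, -0.61 for Hoxa10 and -0.36 for Lgr5. For Hoxa13 itself it gave -0.01, a value fixed near 0 because its own level was the covariate. The causes were not tested. With 3 mice per group, changes under 2-fold and genes of few counts are mostly beyond reach.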

Other observations

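Among the largest changes were genes not yet described. Syt8, a synaptotagmin, read 0.487, 0.732 and 1.16 CPM in Con and 37.7, 25.3 and 51.7 CPM in IR+CF-2 (5.59 ± 0.43, adjusted p 0.00384). Atg9b, a membrane protein of autophagy, rose by 6.32 ± 0.76, and Vsig1, an adhesion molecule of stomach epithelium, by 5.66 ± 0.71. Sval1 read 2.41, 1.01 and 0.864 CPM in Con and 18.4, 401 and 10.1 CPM in IR+CF-2 (6.64 ± 1.65), or 3.31 on the log2 scale without IR+CF-2 2. Pappa2, a protease of insulin-like growth factor binding proteins, read 3.70, 28.3 and 6.71 CPM in the treated libraries (4.79 ± 0.93), or 3.48 without IR+CF-2 2. Il5ra, the interleukin 5 receptor chain of eosinophils, rose by 5.49 ± 0.87 while Siglecf, a marker of eosinophils, fell by 1.96 ± 0.37, both from the list of mast cells and eosinophils.

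Of the decreases, Arhgap20 read 66.6, 64.3 and 88.5 CPM in Con and 2.55, 4.10 and 3.54 CPM in IR+CF-2 (-4.43 ± 0.24, adjusted p 0.00353). Slc17a4, an organic anion transporter, fell from 159, 269 and 222 CPM to 5.22, 12.6 and 9.48 CPM (-4.57 ± 0.39, adjusted p 0.00473). Otc, the urea cycle enzyme that makes citrulline, fell by 4.75 ± 0.74 and Arg2, the mitochondrial arginase, by 4.30 ± 0.38. Lrat, which esterifies retinol, fell by 4.51 ± 0.58. Osr2, a zinc finger transcription factor, read 66.8, 212 and 139 CPM in Con and 0.499, 1.20 and 11.1 CPM in IR+CF-2 (-5.03 ± 1.19).

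Further families were chosen after the values of these data were seen, so their counts describe the data and support nothing. Of 61 ribosome biogenesis genes 37 were higher and 1, Nop53, lower (median 1.02). Of 15 genes of purine and pyrimidine synthesis 9 were higher, with 15 of 15 positive (median 1.10). Of 10 genes of serine, glycine and one-carbon synthesis 5 were higher (median 1.27). Of 81 cytosolic ribosomal protein genes 3 were higher (median 0.25). Of 75 nuclear genes of the respiratory chain and ATP synthase 17 were lower (median -0.37). Among 9 UDP-glucuronosyltransferases 6 were lower (median -1.76), among 12 hydroxysteroid dehydrogenases 6 were lower and 1 higher, and among 8 GIMAP genes, GTPases of lymphocytes, 5 were lower (median -1.12). Among 12 S100 genes 7 were higher, and among 11 ligands of the EGF family 3 were, Areg, Ereg and Nrg1.

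Lists whose counts were not given so far follow, against 7.05% higher and 6.27% lower over all genes. Higher and lower members numbered 2 and 0 of 21 for cholesterol synthesis, 0 and 2 of 16 for dendritic cells and MHC class II, 1 and 2 of 10 for mast cells and eosinophils, 1 and 2 of 13 for lymphoid follicles, 1 and 2 of 13 for cell cycle inhibitors, 1 and 2 of 16 for distal ion transport, 1 and 0 of 7 for mesothelium, and 1 and 0 of 5 for skeletal muscle. In these lists no gene passed the test without Con 4. Without IR+CF-2 2 cholesterol synthesis had 14 of 21 higher, dendritic cells 4 and 4, cell cycle inhibitors 2 and 6, and distal ion transport 1 and 7. Adipocyte, erythroid, and pancreas and liver genes gave 0 calls of 8, 7 and 4 in edgeR and in limma-voom, 0, 1 and 0 at an unadjusted p under 0.05 in edgeR, and 0, 1 and 0 calls in DESeq2. Without IR+CF-2 2 they gave 1, 3 and 1 calls.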
